A study of Mus musculus with 12 samples.

Results

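The mouse oxysterol-binding protein-like genes, 10 of the 51912 genes counted, were followed across 12 RNA libraries of neonatal cortex. They are Osbpl1a, Osbpl2, Osbpl3, Osbpl5, Osbpl6, Osbpl7, Osbpl8, Osbpl9, Osbpl10 and Osbpl11, picked by gene symbol from a family of which earlier results of the same libraries were known. All 10 passed the filter on low counts and were among the 11076 genes tested, so no member was lost. Because the genes were chosen with those results known, their fold changes and adjusted p-values are a description of these libraries and not independent evidence. The founding gene of the family, Osbp, and its close relative Osbp2 are given beside them.

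The proteins of this family (ORPs) carry lipids between membranes where organelles touch each other. Each has a lipid-binding domain that holds a sterol, phosphatidylserine or phosphatidylinositol 4-phosphate (PI4P). Most long forms also have a pleckstrin homology domain that reads phosphoinositides on 1 membrane and a short FFAT motif that binds VAP proteins on the endoplasmic reticulum (ER). In neurons, where membrane is added along long processes, such transfer supplies cholesterol and phosphatidylserine to the plasma membrane in exchange for PI4P.

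RNA was taken from fresh cortex at P0, the day of birth, depleted of ribosomal RNA and made into libraries by ClickSeq, which joins adapters to cDNA by click chemistry. The dKO-E group (4 libraries) had H3f3a and H3f3b, both of which encode histone H3.3, deleted with Emx1-Cre, which acts in the progenitors of cortical excitatory neurons and glia. In the dKO-N group (4 libraries) the same genes were deleted with Neurod6-Cre, which acts in postmitotic excitatory neurons. The control group (4 libraries) is labelled only as control, and which alleles it carries is not given in the sources used here. Cells that neither driver reaches, such as interneurons, microglia and vessels, keep both genes in the dKO cortices and were measured together with the targeted cells. Less RNA per cell and fewer cells of the type that makes it cannot be told apart in such bulk libraries.

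The libraries held 722080 to 3502017 counts in genes, with the 2 extremes both in dKO-N, and 3 counts, taken as the floor, equal 0.901 to 4.14 CPM (reads per 1e+06, scaled with TMM factors). The targeted gene H3f3a was at 22.9 to 30 CPM in dKO-E and 22.1 to 37.8 CPM in dKO-N, while the group labelled control was split, with libraries 2 and 4 at 117 and 121 CPM and libraries 1 and 3 at 17.7 and 16.4 CPM. The last pair was under all 8 knockout libraries, and its label does not say which alleles it carries. H3f3b split the control group too, at 121 and 143 CPM in libraries 1 and 3 and 76.7 and 84.2 CPM in libraries 2 and 4. The cause of this split was not tested. Groups are named by label throughout, and calls are also given without control 1 and 3. Against the labelled control, H3f3a was not called in dKO-E (log2 fold change -1.28, edgeR adjusted p = 0.228) or dKO-N (-0.96, 0.494). Without control 1 and 3, H3f3a was lower in dKO-E (-2.15, edgeR adjusted p = 9.71e-12) and dKO-N (-1.84, 1.34e-09). That pair was left out because of its H3f3a values, so these last p-values are a description only. H3f3b (167 to 180 CPM in dKO-E, 111 to 146 CPM in dKO-N, 76.7 to 143 CPM in control) was higher in dKO-E than in control (log2 fold change 0.69, edgeR adjusted p = 0.000707) and than in dKO-N (0.53, edgeR adjusted p = 0.0303), the second lost in 7 of 12 leave-outs of a single library (0.0544 to 0.24). In dKO-N it passed only without control 1 and 3 (0.57, edgeR adjusted p = 0.00749), and totals per gene cannot show which exons are missing. The counts of 4 Y-linked genes (Ddx3y, Uty, Kdm5d and Eif2s3y) were summed in each of the 12 libraries. Only dKO-E 3 and 4 held more than a few of them (1035 and 274 counts, against 0 to 3 in the rest). Xist, the RNA of the inactive X chromosome, had 2 and 4 counts in dKO-E 3 and 4, against 893 to 4604 in the rest. These values mark dKO-E 3 and 4 as male and the rest as female, so sex is uneven between dKO-E and the other groups. Over all protein-coding genes of the Y chromosome, dKO-E 3 and 4 had 1247 and 546 counts. The rest had 128 to 650, so that wider sum did not set both apart. No label ties the libraries of a group to different animals; p-values therefore describe how these libraries scatter, part of which may be technical.

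The markers of the labelled tissue were present. The summed level of 6 excitatory neuron markers was 1100 to 1490 CPM in dKO-E, 1560 to 2250 CPM in dKO-N and 2440 to 2830 CPM in control. These markers did not all fall. At an adjusted p under 0.05, 3 were lower and 1 higher in dKO-E, and 2 lower and 1 higher in dKO-N. For 9 upper-layer markers the sums were 1330 to 1870 CPM in dKO-E, 2240 to 3150 CPM in dKO-N and 3410 to 3970 CPM in control, with Pou3f3 at 0 in all 3 groups. Radial glia markers, 10 of 11 with counts and Sox2 at 0, summed to 418 to 509 CPM in dKO-E, 475 to 532 CPM in dKO-N and 311 to 385 CPM in control. The 6 intermediate progenitor markers summed to 68.8 to 89.5 CPM in dKO-E, 97.3 to 105 CPM in dKO-N and 40.3 to 54.8 CPM in control. Striatum markers, 7 with counts, summed to 336 to 391 CPM in dKO-E, 297 to 603 CPM in dKO-N and 536 to 588 CPM in control, and 5 Cajal-Retzius markers to 226 to 332 CPM in dKO-E, 372 to 490 CPM in dKO-N and 410 to 479 CPM in control. Sums in both knockouts lay below control for the oligodendrocyte lineage and for endothelium and mural cells. The first were 83.5 to 97.3 CPM in dKO-E, 70 to 98 CPM in dKO-N and 104 to 121 CPM in control. The second were 76.6 to 107 CPM in dKO-E, 78.9 to 105 CPM in dKO-N and 110 to 120 CPM in control. For layer 5 markers the sums lay below control in dKO-E alone (909 to 1080 CPM in dKO-E, 1050 to 1330 CPM in dKO-N and 1160 to 1320 CPM in control). Of these, 2 were lower and 1 higher in dKO-E, and 1 lower and 2 higher in dKO-N. Sums of layer 6 and subplate, interneuron, astrocyte and cell cycle markers overlapped control in both knockouts. Microglia and macrophage markers summed to 17.6 to 24.8 CPM in dKO-E, 13.8 to 21.6 CPM in dKO-N and 9.54 to 14.7 CPM in control. The part of these shifts in the values below was not tested. The 5 choroid plexus markers were at or near 0, with sums of 0.782 to 3.92 CPM in dKO-E, 0 CPM in dKO-N and 0 to 1.07 CPM in control.

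Promoter sequences show which regulatory letters the members share. The RefSeq table (GRCm38.p6, the same assembly as mm10) holds windows of 250 bases before to 50 bases after a gene's start for 8 of the 10 members, 12 windows in all; Osbpl1a and Osbpl10 have no entry there. The stretches before the start are printed for Osbpl3 and Osbpl6, which were lower in both knockouts, and for Osbpl11, which passed in neither. They lie at chr6:50456202-50456420 (Osbpl3, minus strand, without bases that GENCODE M21 places inside the transcript), chr2:76406258-76406507 (Osbpl6, plus strand) and chr16:33184821-33185070 (Osbpl11, plus strand). Letters run 5′ to 3′ in the direction of the gene. Capitals mark matches, on either strand, to a GC box (GGGCGG, the letters of Sp-type factors), CCAAT (those of NF-Y) or the E-box CAGATG (one of those that NeuroD-type factors bind).
Osbpl3: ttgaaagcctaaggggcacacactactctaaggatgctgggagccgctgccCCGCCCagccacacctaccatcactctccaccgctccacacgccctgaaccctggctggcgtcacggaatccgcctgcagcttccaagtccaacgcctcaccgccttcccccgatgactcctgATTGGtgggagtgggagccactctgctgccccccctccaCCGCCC
Osbpl6: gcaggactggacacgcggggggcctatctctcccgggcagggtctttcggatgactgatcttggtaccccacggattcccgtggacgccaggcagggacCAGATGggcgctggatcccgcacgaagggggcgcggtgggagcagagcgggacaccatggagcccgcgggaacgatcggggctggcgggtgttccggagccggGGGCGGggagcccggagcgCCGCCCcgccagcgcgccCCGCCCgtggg
Osbpl11: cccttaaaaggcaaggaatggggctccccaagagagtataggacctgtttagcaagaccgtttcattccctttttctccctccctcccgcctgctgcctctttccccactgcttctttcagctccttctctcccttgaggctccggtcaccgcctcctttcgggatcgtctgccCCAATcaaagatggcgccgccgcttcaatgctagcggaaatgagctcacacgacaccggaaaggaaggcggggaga

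Osbpl3 and Osbpl11 each held a CCAAT match at position -76 from the RefSeq start, counted from its first base in the direction of the gene, on the minus strand in Osbpl3 and on the plus strand in Osbpl11. Osbpl6 has 2 windows, and the first, which is printed, held the E-box at -151 and 3 GC boxes at -48, -29 and -11. The second held no E-box and no GC box. CAGATG was found in 2 of the 12 member windows (1 of Osbpl6, 1 of Osbpl5), and in 17.2% of all 32851 windows in the table. CCAAT was found in 7 of 12 member windows, against 37.4% of all, and GGGCGG in 8 of 12, against 35.7% of all. Letters of sterol-responsive factors were searched too. The sterol regulatory element TCACNCCAC, read by SREBP factors, was in 0 of 12 member windows and in 1.24% of all. An AGGTCA direct repeat with any 4 bases between its copies, the letters of liver X receptors, was in 0 of 12 member windows and in 0.0152% of all. The motifs do not overlap each other in the stretches printed. GC content was 62.0% in the Osbpl3 window, 75.3% in the first of Osbpl6 and 61.0% in that of Osbpl11, against a median of 52.7% over all windows. In the second Osbpl6 window it was 48%, below that median.

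Summed over the family, fewer transcripts were counted in both knockouts, though not for every member. The 10 members summed to 837, 786, 847 and 850 CPM in dKO-E and to 920, 843, 877 and 1020 CPM in dKO-N, against 1220, 1200, 1150 and 1200 CPM in control. No knockout library reached the lowest control library. Group sums were 830 ± 29.8 CPM in dKO-E, 914 ± 75.5 CPM in dKO-N and 1190 ± 27.9 CPM in control (SD, n = 4 each).

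The members differed in the size of their change and in whether they passed the test. Against control, 5 of 10 members were lower in dKO-E and none higher at an adjusted p under 0.05 (edgeR quasi-likelihood test, Benjamini-Hochberg over all genes tested); at an unadjusted p under 0.05 these counts were 5 and 0, and by DESeq2 4 and 0. Over all 11076 genes, 20.2% were called in that comparison, 10.1% lower and 10.1% higher. In dKO-N, 5 of 10 were again lower and none higher (5 and 0 unadjusted, 4 and 0 by DESeq2), where 11.3% of all genes were called, 6.29% lower and 5.04% higher. Osbpl1a, Osbpl3, Osbpl6 and Osbpl10 were lower in both, Osbpl8 passed in dKO-E alone and Osbpl7 in dKO-N alone, and Osbpl2, Osbpl5, Osbpl9 and Osbpl11 passed in neither. The comparisons share their control libraries and are therefore not independent of each other. The median log2 fold change of the 10 members was -0.26 in dKO-E and -0.27 in dKO-N, against 0.01 over all genes tested in each comparison. Between the knockouts, 1 of 10 members was lower in dKO-E and none higher (2 and 1 unadjusted, 1 and 0 by DESeq2), where 6.84% of all genes were called, 3.73% lower and 3.11% higher. Scaling by library totals in place of TMM moved the median of all genes to 0.14 in dKO-E, and the higher share of the called genes to 73.9% from 50% in dKO-E, 57.8% from 44.5% in dKO-N and 65.4% from 45.5% between the knockouts. Nothing is read from the members' counts against these shares, since the same comparisons led to the choice of genes.

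**Figure D1:**
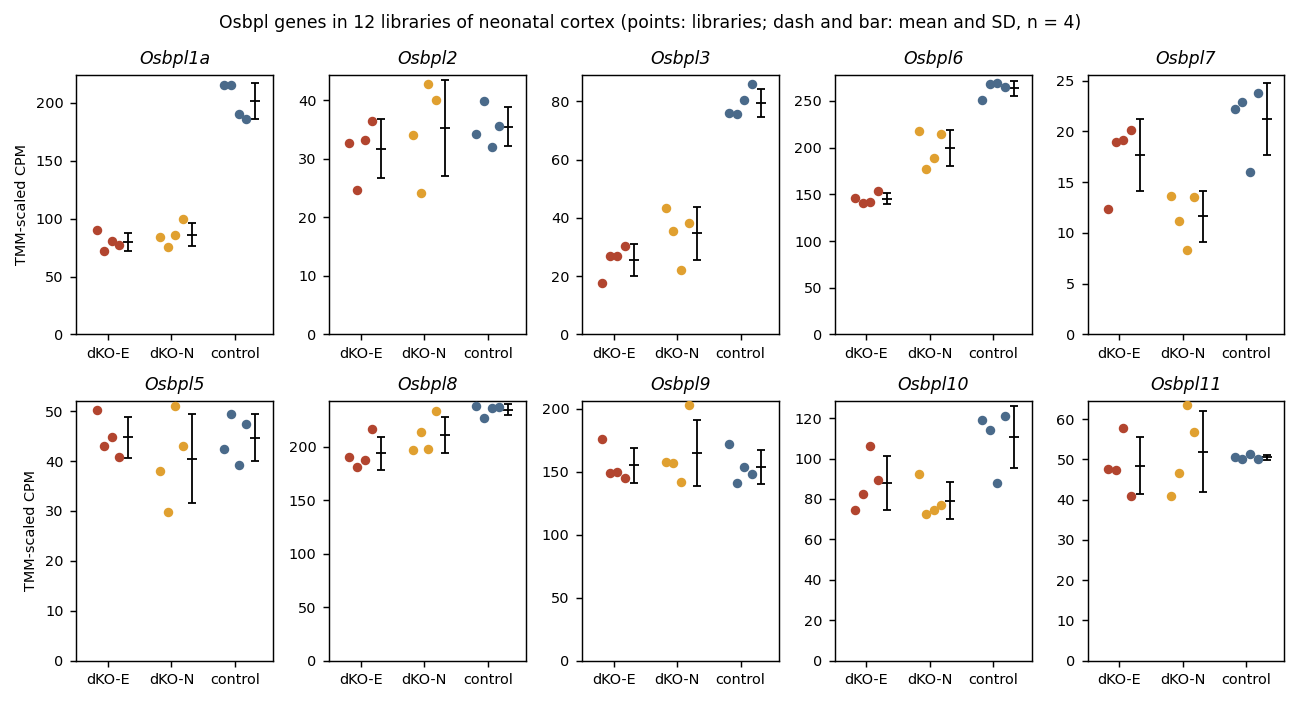
Level of each Osbpl gene in every library, in CPM scaled with TMM factors, with dKO-E, dKO-N and control from left to right in each panel; each point is a library, and the dash and bar give the mean and SD (n = 4). The knockout points of Osbpl1a, Osbpl3 and Osbpl6 lie below all control points, while those of Osbpl2, Osbpl5, Osbpl9 and Osbpl11 overlap them.

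Osbpl1a and Osbpl2 form the branch that handles endosomal and plasma membrane cholesterol. The long Osbpl1a product (ORP1L) sits on late endosomes, binds Rab7 and senses their cholesterol. Osbpl1a was at 90.1, 72.1, 80.5 and 77.2 CPM in dKO-E and at 84.4, 75.5, 85.5 and 99.4 CPM in dKO-N, against 215, 215, 190 and 186 CPM in control. Every knockout library was below 100 CPM and every control library above 185 CPM. Its level fell by 60.5% in dKO-E (log2 fold change -1.34, SE 0.10, edgeR adjusted p = 9.64e-13). In dKO-N it fell by 56.2% (log2 fold change -1.19, SE 0.11, edgeR adjusted p = 1.63e-10). The difference between the knockouts was -0.15 on the log2 scale, with a 95% interval of -0.41 to 0.12 (edgeR adjusted p = 0.49).

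Osbpl2, a short form without the pleckstrin homology domain that delivers cholesterol to the plasma membrane, missed the threshold in both knockouts. It was at 32.7, 24.7, 33.2 and 36.4 CPM in dKO-E and at 34.0, 24.2, 42.7 and 40.0 CPM in dKO-N, against 34.3, 39.9, 32 and 35.6 CPM in control. All 3 groups overlapped. The interval of its log2 fold change ran from -0.53 to 0.20 in dKO-E and from -0.36 to 0.40 in dKO-N, both including 0.

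Osbpl3, Osbpl6 and Osbpl7 make up another branch, and all 3 were lower in dKO-N while 2 were lower in dKO-E. Osbpl3 (chromosome 6, 50293330 to 50456201, minus strand, mm10 with GENCODE M21) encodes a protein of contacts between ER and plasma membrane that acts with R-Ras in cell adhesion. It was at 17.6, 27.1, 27.0 and 30.2 CPM in dKO-E and at 43.5, 35.4, 22.1 and 38.1 CPM in dKO-N, against 75.9, 75.6, 80.3 and 85.8 CPM in control. The groups did not overlap with control, and dKO-N 3 fell within the dKO-E range. Osbpl3 fell by 67.4% in dKO-E, the largest change of any member (log2 fold change -1.62, SE 0.15, edgeR adjusted p = 7.39e-11). In dKO-N it fell by 54.9% (log2 fold change -1.15, SE 0.15, edgeR adjusted p = 5.48e-07). Set directly against each other, dKO-E was lower than dKO-N by 0.47 on the log2 scale but missed the threshold (95% interval -0.86 to -0.07, edgeR adjusted p = 0.0977). Without dKO-N 3 the same difference was -0.57 and passed (edgeR adjusted p = 0.043).

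Osbpl6 (chromosome 2, 76406508 to 76600647, plus strand) encodes a relative of ORP3 that takes part in PI4P turnover in neurons. Its levels were 146, 141, 142 and 153 CPM in dKO-E and 218, 177, 189 and 214 CPM in dKO-N, against 251, 268, 269 and 265 CPM in control. The 3 groups formed separate steps with no overlap. It fell by 44.7% in dKO-E (log2 fold change -0.86, SE 0.09, edgeR adjusted p = 2.12e-09). A smaller fall of 23.8% was seen in dKO-N (log2 fold change -0.39, SE 0.09, edgeR adjusted p = 0.00264). Osbpl6 was the only member to pass the test between the knockouts, where its level fell by 27.4% in dKO-E relative to dKO-N (log2 fold change -0.46, SE 0.09, edgeR adjusted p = 0.00225). That difference held in all 21 other settings, with adjusted p of 0.000129 to 0.04.

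Osbpl7 (chromosome 11, 97050628 to 97068904, plus strand), the least abundant member per kb of exon in the libraries labelled control, rests on 6 to 63 counts per library. It was at 12.4, 19.0, 19.1 and 20.1 CPM in dKO-E and at 13.6, 11.2, 8.27 and 13.5 CPM in dKO-N, against 22.2, 22.9, 16 and 23.8 CPM in control. The dKO-N libraries lay below all control libraries, and the dKO-E libraries overlapped both groups. In dKO-N it fell by 42.1% (log2 fold change -0.79, SE 0.23, edgeR adjusted p = 0.0208). That call was lost without dKO-N 3 or without control 1, 2 or 4 (edgeR adjusted p = 0.0507 to 0.0581), and with all libraries thinned to the smallest total (0.111). In dKO-E the log2 fold change was -0.24 (95% interval -0.69 to 0.21), and the difference between the knockouts missed the threshold (0.55, edgeR adjusted p = 0.16).

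**Figure D2:**
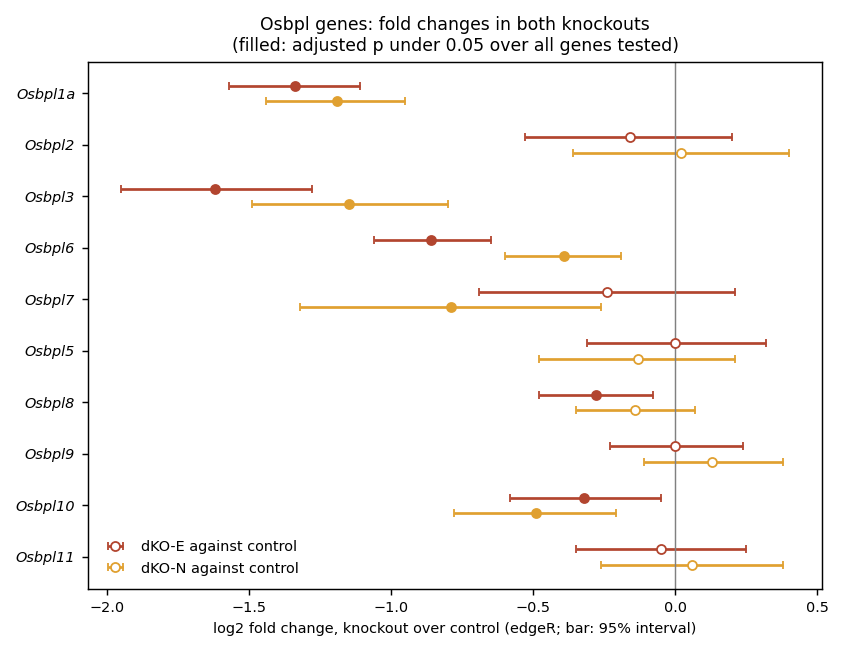
Log2 fold change over control for each Osbpl gene, dKO-E above dKO-N in each pair, with 95% intervals from the edgeR fit; filled points have an adjusted p under 0.05 over all genes tested. Osbpl3 reaches -1.62 in dKO-E and Osbpl1a -1.34, while Osbpl2, Osbpl5, Osbpl9 and Osbpl11 lie near 0.

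Osbpl5 and Osbpl8 encode the members anchored in the ER by a transmembrane segment, which exchange phosphatidylserine for PI4P at the plasma membrane. Osbpl8 (chromosome 10, 111164752 to 111297249, plus strand) was at 190, 181, 187 and 216 CPM in dKO-E and at 197, 214, 198 and 233 CPM in dKO-N, against 238, 227, 236 and 237 CPM in control. The dKO-E libraries all lay below control, by a margin that was small beside those of Osbpl1a and Osbpl3, and dKO-N 4 lay within the control range. Osbpl8 fell by 17.6% in dKO-E (log2 fold change -0.28, SE 0.09, edgeR adjusted p = 0.0227). The call was lost without dKO-E 2 or 3 or control 1 or 3 (edgeR adjusted p = 0.0508 to 0.0919), and without control 1 and 3 together (0.16) or dKO-E 3 and 4 together (0.0586). With library totals it was -0.15 and not called (0.195), nor with no filter on low counts (0.0715). In dKO-N the log2 fold change was -0.14 (edgeR adjusted p = 0.39), and the knockouts did not differ past the threshold (-0.14, 95% interval -0.35 to 0.07).

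Osbpl5 was at 50.3, 43.0, 44.9 and 40.8 CPM in dKO-E and at 38.1, 29.8, 51.0 and 43.0 CPM in dKO-N, against 42.4, 49.5, 39.3 and 47.5 CPM in control. The groups overlapped throughout. Its log2 fold change was 0.00 in dKO-E (95% interval -0.31 to 0.32) and -0.13 in dKO-N (-0.48 to 0.21).

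Osbpl9, Osbpl10 and Osbpl11 work between the ER, the Golgi and endosomes, where the Osbpl9 product pairs with that of Osbpl10 or Osbpl11. Of the 3, Osbpl10 (chromosome 9, 114978569 to 115232225, plus strand) alone was lower. It was at 74.5, 82.3, 106 and 89.5 CPM in dKO-E and at 92.5, 72.7, 74.4 and 77.2 CPM in dKO-N, against 119, 114, 88.1 and 121 CPM in control. Control 3 lay among the knockout libraries, so both knockouts overlapped control. In dKO-N it fell by 28.9% (log2 fold change -0.49, SE 0.13, edgeR adjusted p = 0.00687). The fall of 19.7% in dKO-E sat at the threshold (log2 fold change -0.32, SE 0.12, edgeR adjusted p = 0.0482). It was lost without dKO-E 1, 2 or 4 or control 1, 2 or 4 (edgeR adjusted p = 0.0876 to 0.156), and without control 1 and 3 together (0.0544). With library totals it was -0.19 and not called (0.25), nor did it pass with DESeq2 (0.108), with no filter on low counts (0.0645) or with thinned libraries (0.0577).

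Osbpl9 was at 176, 149, 150 and 145 CPM in dKO-E and at 158, 157, 142 and 203 CPM in dKO-N, against 172, 141, 154 and 148 CPM in control. Its log2 fold change was 0.00 in dKO-E (95% interval -0.23 to 0.24) and 0.13 in dKO-N (-0.11 to 0.38). Part of Osbpl9 is overlapped on the opposite strand by Nrd1, which held 2566 counts against 3736 for Osbpl9 over the 12 libraries, and the sources used here do not say whether counting used strand. Osbpl10 is overlapped likewise by Rps27rt, with 52 counts against 2194, and no other member shares its span with a gene of more than 1 count. Osbpl11, whose product binds that of Osbpl9 at the Golgi, was at 47.7, 47.4, 57.8 and 40.8 CPM in dKO-E and at 40.8, 46.6, 63.4 and 56.8 CPM in dKO-N, against 50.5, 50.1, 51.4 and 50.1 CPM in control. The control libraries were close together and lay inside the range of both knockouts. Its log2 fold change was -0.05 in dKO-E (95% interval -0.35 to 0.25) and 0.06 in dKO-N (-0.26 to 0.38).

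Osbp and Osbp2 were measured beside the members. Osbp, which swaps cholesterol for PI4P between the ER and the trans-Golgi, was at 65.3, 48.6, 64.5 and 62.6 CPM in dKO-E and at 58.5, 69.9, 55.1 and 52.0 CPM in dKO-N, against 61.8, 71.9, 79.9 and 69.2 CPM in control. It overlapped between groups and passed in neither comparison (log2 fold change -0.24 and edgeR adjusted p = 0.19 in dKO-E, -0.28 and 0.196 in dKO-N). Osbp2, which encodes ORP4, was at 75.1, 64.0, 70.7 and 55.9 CPM in dKO-E and at 69.4, 55.0, 56.5 and 45.4 CPM in dKO-N, against 53.0, 50.6, 46.2 and 55.3 CPM in control. It was higher in dKO-E by 29.5% (log2 fold change 0.37, SE 0.13, edgeR adjusted p = 0.0341), with dKO-E 4 just above the highest control library. That call was lost without dKO-E 1, 2 or 3 or control 1, 2 or 3 (edgeR adjusted p = 0.0589 to 0.116), and without control 1 and 3 together (0.247). It was also lost with DESeq2 (0.108), with no filter on low counts (0.0666), without dKO-E 3 and 4 together (0.0863) and with all libraries thinned to the smallest total, where the log2 fold change was 0.23 (0.488).

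These uneven changes altered the order of the family by level. Per kb of merged exons, the control order was led by Osbpl6 (26.1 ± 0.838 CPM per kb), Osbpl1a (25.9 ± 2.01), Osbpl8 (24.9 ± 0.557), Osbpl9 (21.9 ± 1.92) and Osbpl10 (21.5 ± 2.97, all SD, n = 4), and each neighbour in that order overlapped the next. Osbp followed at 15.8 ± 1.66 CPM per kb. A gap set these apart from Osbpl11, Osbpl5, Osbpl3, Osbpl2 and Osbp2, whose means lay between 8.06 and 9.92 CPM per kb and overlapped from each to the next, and Osbpl7 stood alone at the low end with 3.58 ± 0.600. In both knockouts Osbpl9 and Osbpl8 had the highest means, overlapping each other and the next gene (Osbpl10 in dKO-E, Osbpl6 in dKO-N), at 22.1 ± 2.00 and 20.6 ± 1.67 CPM per kb in dKO-E and 23.5 ± 3.76 and 22.4 ± 1.75 in dKO-N. Osbpl1a stood seventh in dKO-E, at 10.3 ± 0.975 CPM per kb, and sixth in dKO-N, at 11.1 ± 1.27, overlapping its neighbours in both. Osbpl3, at 2.83 ± 0.603 CPM per kb in dKO-E, overlapped with Osbpl7 there (2.99 ± 0.600), while in dKO-N the pair did not overlap (3.86 ± 1.01 and 1.97 ± 0.424).

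**Figure D3:**
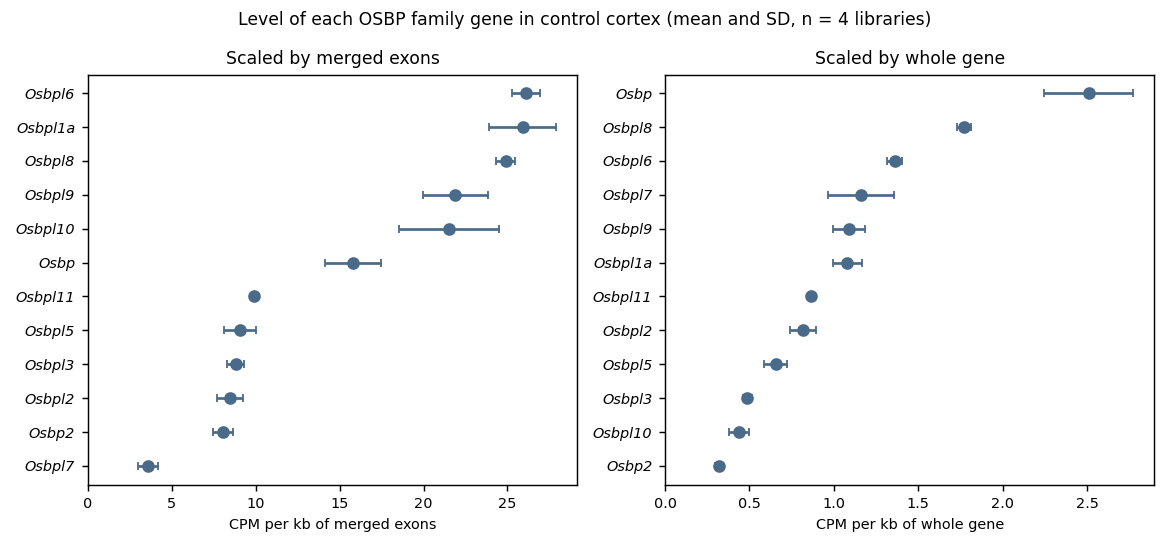
Level of the 10 Osbpl genes, Osbp and Osbp2 in the libraries labelled control, as mean and SD over 4 libraries, divided by the length of the merged exons (left) or of the whole gene (right), in CPM per kb. Osbpl6 leads at 26.1 CPM per kb of exon, and Osbp leads at 2.51 CPM per kb of whole gene.

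The order depends on which length is used. Whether reads in introns were counted is not given in the sources used here. Per kb of whole gene in control, Osbp led at 2.51 ± 0.265 CPM per kb, ahead of Osbpl8 (1.77 ± 0.0395) and Osbpl6 (1.36 ± 0.0434), and Osbpl10 and Osbp2 came last (0.436 ± 0.0602 and 0.320 ± 0.0242). Comparisons of a gene between groups are not touched by this choice. As a share of the counts of the 10 members, Osbpl1a made up 9.63 ± 0.776% in dKO-E and 9.41 ± 0.411% in dKO-N, against 16.8 ± 1.09% in control (SD, n = 4). Osbpl9, whose own level did not pass the test, made up 18.7 ± 1.72% in dKO-E and 18 ± 1.64% in dKO-N, against 12.9 ± 1.06% in control.

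Other genes were ranked by how closely their level followed the members with the largest mean change, Osbpl3 and Osbpl1a. The measure was the root mean square (RMS) difference of centred log2 CPM over the 12 libraries, among 9316 genes. Closest to Osbpl3 were Ntsr1, a receptor gene used as a layer 6 marker, Cnksr2, Sulf1, Ptprk and Sybu, with RMS differences of 0.27 to 0.293 against a median of 0.78 over those genes. The 9 layer 6 and subplate markers, Ntsr1 among them, did not move as 1. Their sums were 2410 to 2910 CPM in dKO-E, 2430 to 3400 CPM in dKO-N and 2850 to 3200 CPM in control. Of the 9, 4 were lower and 1 higher in dKO-E, and 2 lower and 1 higher in dKO-N. Closest to Osbpl1a were Lsamp, Kif26b, Cnksr2, Klhl29 and Frmd4a, at 0.147 to 0.163 against a median of 0.662. Cnksr2, a synaptic scaffold gene, appears for both, with log2 fold changes of -1.24 in dKO-E and -1.17 in dKO-N. Since these genes were ranked on the same libraries, their likeness is a description.

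The lipid pathways that the family serves were then examined through lists chosen with earlier results of these libraries known. The shares called are read beside those of all genes tested, 20.2% in dKO-E and 11.3% in dKO-N. In dKO-E, 9 of 19 tested cholesterol synthesis genes were lower and 1 higher (52.6% called), with a median log2 fold change of -0.58. In dKO-N, 3 were lower and 1 higher (21.1% called), with a median of -0.34. Fdft1, the squalene synthase gene, was at 79.5 ± 11.7 CPM in dKO-E against 153 ± 14.7 CPM in control (log2 fold change -0.94, edgeR adjusted p = 4.25e-07). Msmo1, which removes methyl groups from sterol precursors, was at 13.9 ± 3.12 CPM in dKO-E against 32.8 ± 6.18 CPM in control (-1.22, edgeR adjusted p = 0.000287). Hmgcs1, an early enzyme of the pathway, was at 121 ± 27.8 CPM in dKO-E and 130 ± 27.0 CPM in dKO-N, against 224 ± 34.7 CPM in control (edgeR adjusted p = 0.000432 and 0.00585). Lbr, a sterol reductase gene of the nuclear envelope, was the higher gene in both, at 23.9 ± 0.815 CPM in dKO-N against 15 ± 6.31 CPM in control (0.70, edgeR adjusted p = 0.0339). The Lbr call in dKO-N was lost without dKO-N 2, 3 or 4 or control 1, 2 or 3 (edgeR adjusted p = 0.0504 to 0.135), and that in dKO-E without dKO-E 2 or 3 or control 1, 2 or 3 (0.0774 to 0.123). Without control 1 and 3 together, 6 genes of the list were lower in dKO-E and 1 in dKO-N, none higher, and Hmgcs1 no longer passed in dKO-N (0.0816). Without dKO-N 3, or without control 3, the dKO-N count was 2 lower and none higher.

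The list around PI4P, the lipid that ORPs trade for their cargo, held 22 genes of phosphoinositide synthesis and turnover. It is wider than PI4P itself. In dKO-E 4 were lower and 3 higher (31.8% called), and in dKO-N 2 were lower and 1 higher (13.6%, near the 11.3% of all genes), with median log2 fold changes of 0.00 and 0.02. Ttc7, a subunit gene of the plasma membrane PI4-kinase complex, was at 211 ± 67.4 CPM in dKO-E and 156 ± 22.8 CPM in dKO-N, against 13.2 ± 1.23 CPM in control. It rose by 3.99 on the log2 scale in dKO-E (edgeR adjusted p = 1.81e-07) and by 3.51 in dKO-N (1.95e-06), the largest change of any gene in these lists. Its paralogue Ttc7b was at 159 ± 20.9 CPM in dKO-N against 198 ± 9.54 CPM in control (-0.30, edgeR adjusted p = 0.0435). That call was lost without dKO-N 1 or 2, dKO-E 2, 3 or 4 or control 2, 3 or 4 (0.0543 to 0.135). Without control 1 and 3 together it was lost too (0.16). Pip4k2a, a phosphoinositide kinase gene, was lower at 53.4 ± 2.91 CPM in dKO-E and 56.4 ± 5.90 CPM in dKO-N, against 90.6 ± 5.79 CPM in control (edgeR adjusted p = 1.68e-06 and 0.000146). Synj2, a phosphoinositide phosphatase gene, was higher in dKO-E at 13.5 ± 3.60 CPM against 4.66 ± 2.73 CPM in control (edgeR adjusted p = 0.00115). The dKO-E count of 7 called genes was 4 without dKO-E 4, without control 2, without control 3 or without control 1 and 3 together.

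**Figure D4:**
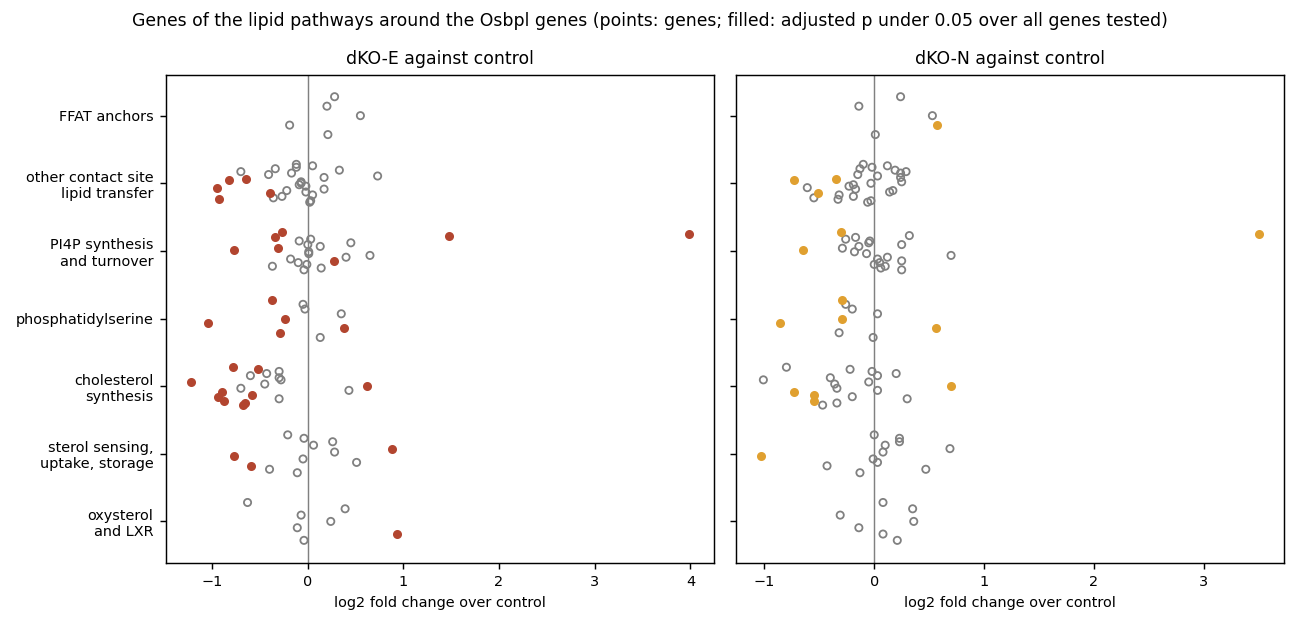
Log2 fold change over control of each tested gene in the lipid pathway lists, dKO-E on the left and dKO-N on the right; filled points have an edgeR adjusted p under 0.05 over all genes tested. Cholesterol synthesis has 9 filled points below 0 in dKO-E and 3 in dKO-N, and the lone point beyond 3 in each panel is Ttc7.

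Of the 9 tested genes for phosphatidylserine synthesis and use, 4 were lower and 1 higher in dKO-E (55.6% called), and 3 were lower and 1 higher in dKO-N (44.4%), with median log2 fold changes of -0.05 and -0.26. Atp8a1, a flippase that keeps phosphatidylserine on the inner leaflet, was at 252 ± 14.8 CPM in dKO-E and 283 ± 36.8 CPM in dKO-N, against 518 ± 29.7 CPM in control (edgeR adjusted p = 4.12e-11 and 1.07e-08). Xkr4, of the scramblase family, was lower in dKO-E at 1230 ± 63.3 CPM against 1590 ± 108 CPM in control (edgeR adjusted p = 0.00152). Atp8a2 was at 304 ± 24.9 CPM in dKO-N against 372 ± 18.2 CPM in control (edgeR adjusted p = 0.0303), a call lost without dKO-N 1 or 2 or control 1 or 3 (0.0539 to 0.1). The dKO-E count of 5 called genes was 3 without dKO-E 1 or 2 or control 1, 3 or 4, and the dKO-N count of 4 was 2 without control 1 or 3. Without control 1 and 3 together, both counts were 2. Xkr4 was then not called in dKO-E (0.0682), nor was Atp8a2 in dKO-N (0.277).

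Among 27 other genes of lipid transfer or tethering at contact sites, 5 were lower in dKO-E and 3 in dKO-N, with medians of -0.12 and -0.10. None was higher by edgeR (1 and 1 at an unadjusted p under 0.05, 0 and 0 by DESeq2). These counts, 18.5% in dKO-E and 11.1% in dKO-N, were near the shares of all genes (20.2% and 11.3%). Pitpnm1, a phosphatidylinositol transfer gene, was lower at 20 ± 1.53 CPM in dKO-E against 35.0 ± 3.14 CPM in control (-0.82, edgeR adjusted p = 0.00273). In dKO-N it was at 25.0 ± 9.84 CPM (-0.73, edgeR adjusted p = 0.0256), a call lost without dKO-N 4 (-0.28, 0.472) or control 1 or 4 (0.0615 and 0.0759). C2cd2 and Gramd2 were lower in dKO-E, at 7.63 ± 1.75 and 5.63 ± 1.72 CPM, against 14.7 ± 3.00 and 11 ± 0.929 CPM in control (edgeR adjusted p = 0.00579 and 0.025). C2cd2 did not pass without control 1 (0.0532), nor Gramd2 without dKO-E 1 or 3 or control 1, 2 or 4 (0.0501 to 0.0858). Without control 1 and 3 together C2cd2 (0.166), Gramd2 (0.0832) and, in dKO-N, Pitpnm1 (0.145) were not called. Esyt2, a tether gene of contacts between ER and plasma membrane, was at 122 ± 22.4 CPM in dKO-N against 179 ± 28.5 CPM in control (-0.51, edgeR adjusted p = 0.00438). Pitpnm2 was at 116 ± 7.49 CPM in dKO-N against 146 ± 15 CPM in control (-0.35, edgeR adjusted p = 0.026), lost without dKO-N 3 or 4 or control 1, 2 or 4 (0.0504 to 0.0818). The dKO-E count was 2 lower and 1 higher without control 1, and 2 lower without control 1 and 3 together. The dKO-N count was 4 lower and 2 higher without dKO-N 2, and 1 lower without dKO-N 4, control 1 or control 4.

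The remaining lists hold the partners that ORPs bind and the genes that sense sterols. Of 5 VAP-type anchors of the FFAT motif, none passed in dKO-E by edgeR (1 at an unadjusted p under 0.05, 0 by DESeq2), and 1 was higher in dKO-N. That gene, Mospd2, was at 26.2 ± 3.62 CPM in dKO-N against 18.1 ± 1.06 CPM in control (0.57, edgeR adjusted p = 0.0461), and its call was lost in 10 of 12 leave-outs of a single library, all but those of dKO-N 2 and dKO-E 1 (0.0516 to 0.287). Of 12 genes for sterol sensing, uptake and storage, 2 were lower and 1 higher in dKO-E (25% called, against 20.2% of all genes), and 1 was lower in dKO-N (8.33% against 11.3%). Npc2, which moves cholesterol out of lysosomes, was higher at 15.1 ± 3.47 CPM in dKO-E against 7.92 ± 1.62 CPM in control (0.88, edgeR adjusted p = 0.0113), a call lost without dKO-E 1 (0.0538). Mylip, a ubiquitin ligase gene induced by LXR, was at 8.39 ± 2.38 CPM in dKO-E and 6.92 ± 3.06 CPM in dKO-N, against 14.7 ± 2.31 CPM in control (edgeR adjusted p = 0.0299 and 0.0174). Mylip was not called in dKO-N without dKO-N 4 or control 3 (0.0815 and 0.0654), nor in dKO-E without dKO-E 1, 3 or 4 or control 3 or 4 (0.0594 to 0.102). Without control 1 and 3 together no gene of these 2 lists passed. Of 7 oxysterol and LXR genes, Abcg1, a sterol exporter gene, was higher in dKO-E at 43.0 ± 9.74 CPM against 22.4 ± 4.30 CPM in control (0.93, edgeR adjusted p = 0.000167), and none passed in dKO-N (0 at an unadjusted p under 0.05, 0 by DESeq2).

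Several list counts in dKO-E were smaller without dKO-E 3 and 4, the libraries marked as male. Without that pair, 6 cholesterol synthesis genes were lower and none higher. In the other lists 3 phosphoinositide genes (1 lower), 2 phosphatidylserine genes (both lower) and 3 other contact site genes (all lower) were called. In the sterol sensing list 1 gene was then called, higher, and in the oxysterol and LXR list 2, both higher. Pitpnm1 (edgeR adjusted p = 0.0542), Gramd2 (0.0876), Lbr (0.134) and Mylip (0.337) were then not called in dKO-E. With all libraries thinned to the smallest total, 6 cholesterol synthesis genes were lower in dKO-E and none higher. In the other lists 4 phosphoinositide genes (3 lower), 3 phosphatidylserine genes (2 lower) and 3 other contact site genes (all lower) were called. The sterol sensing and oxysterol lists then gave 1 and 2 called genes, all higher. Among the calls that thinning ended was that of Lbr in dKO-E (edgeR adjusted p = 0.153). In dKO-N, those of Lbr, Ttc7b, Atp8a2, Pitpnm1, Pitpnm2 and Mospd2 ended (edgeR adjusted p = 0.0584 to 0.463). Mylip was then not called in dKO-E either. By DESeq2, Lbr and Mylip in both knockouts, Gramd2 in dKO-E, and Ttc7b, Pitpnm1 and Mospd2 in dKO-N were not called (DESeq2 adjusted p = 0.0509 to 0.16).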

How the data were processed

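Whole-number counts per gene were used as deposited, 1 table for each of the 12 libraries, with no normalization by the authors in these values. STAR, UMI-tools and HTSeq with the mm10 build are named, per the submitters' processing notes; no source used here gives their versions, the annotation or the counting options (strand, introns). Lines that name no gene were left out of library sizes. Identifiers were matched to GENCODE M21 (99.6%).

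After filtering with filterByExpr (minimum count 10) and TMM scaling, counts were tested in 1 edgeR quasi-likelihood fit of all 12 libraries, with group as the only term, adjusted over 11076 genes at a threshold of 0.05. Values in CPM use the filtered library size times its TMM factor; ± gives the SD. Libraries of a group differed by more than counting noise (chi-square over degrees of freedom 1.62 to 5.99), so none was taken for a second deposit of another, and each counts as 1 sample; whether they come from separate animals is not shown by this. The code was tested on simulated data with known changes. Tools were edgeR 4.0.16, DESeq2 1.42.0 and limma 3.58.1 in R 4.3.3, and Python 3.11.15 with pandas 2.3.3 and matplotlib 3.10.9.

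The members, gene lists, naming rule and alternatives were chosen with earlier results of these data known. Named were the 10 members, Osbp, Osbp2, H3f3a and H3f3b, up to 3 called genes of each list and comparison with control by largest change (average log2 CPM of at least 3), and 5 genes closest in pattern to each of the 2 members with the largest mean change. Alternatives were other scalings, DESeq2, no filter, each library left out, control 1 and 3 left out, dKO-E 3 and 4 left out, the replicate number as a block, equal depth, and a fit of only the groups compared. Promoter windows came from RefSeq (GRCm38.p6). Chromatin and single-nucleus data of the study were not analysed here. Some genes of the pathway lists that the rule names are not reported here one by one; they remain in the list counts.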

Additional observations from a re-analysis of the deposited data

Results flagged for a closer look

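Of 36 groups of 4 libraries examined (the 10 members, Osbp and Osbp2 in 3 groups), 3 had a library far from the other 3 of its group by Dixon's test; chance alone sets apart about 1 group in 20. Osbpl7 was at 12.4 CPM in dKO-E 1, where the other dKO-E libraries were at 19 to 20.1 CPM. Osbpl9 was at 176 CPM in dKO-E 1, where the others were at 145 to 150 CPM. Osbp was at 48.6 CPM in dKO-E 2, where the others were at 62.6 to 65.3 CPM. The summed meninges markers also peaked in dKO-E, at 10.1 to 94.7 CPM there, 12.2 to 23.4 CPM in dKO-N and 11.7 to 17.6 CPM in control, and their part in these values was not tested.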

How the results depend on the processing

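Of the 11 calls of Osbpl members, 8 held in all 21 other settings, and no called value changed sign. Osbpl7 (dKO-N), Osbpl8 (dKO-E) and Osbpl10 (dKO-E) were each lost in at least 1 setting; beside the values given above, Osbpl7 was lost with DESeq2 (adjusted p = 0.057). The count of members called in dKO-E against control was 3 with library totals, with no filter on low counts, and without control 1 and 3 together, and 3 to 5 when 1 library was left out. Between the knockouts it was 1 to 2 on leaving out 1 library. Counts of all genes called without control 1 and 3 were 756 in dKO-N and 1215 in dKO-E. Without dKO-E 3 and 4, the libraries marked as male, they were 1225 in dKO-E against control and 199 between the knockouts. With all libraries thinned to the smallest total they were 761 in dKO-N, 1243 in dKO-E and 307 between the knockouts. Between the knockouts, a fit of only those groups called 488 genes. Leaving out 1 library gave 300 (without dKO-N 4) to 1036 (without dKO-N 2). The cause of these shifts was not tested, other than that fewer libraries or reads were used where so stated. Depth limits Osbpl7 most, with 6 counts in its lowest library.

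Same-numbered libraries did not deviate together (correlations of -0.26 to 0.05), so no pairing by replicate number was seen. The highest correlation, 0.36, was between dKO-N 4 and control 1, the libraries with the most counts (3502017 and 3083599). The lowest, -0.26, was between control 1 and dKO-N 1, the library with the fewest (722080). The part of depth in this was not tested. With 4 libraries in each group, a weak shared effect could be missed, so these values cannot show that the numbers pair nothing. With the replicate number as a block, 500 genes were called between the knockouts, 1974 in dKO-E and 1065 in dKO-N, and members called were 1, 4 and 5; Osbpl10 was lost in dKO-E (adjusted p = 0.0794).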
